A study of Saccharomyces cerevisiae with 6 samples.

Results

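The genes of glycolysis, fermentation and gluconeogenesis were examined in the nab2-1 mutant of budding yeast and in a wild type strain. The set is a list of 36 named genes, each read through the Affymetrix probe set that the platform annotation assigns to it. A probe set was found for 35 of the 36, among 5449 genes tested in all; TDH2 had none and was not analysed here. Per the labels, the nab2-1 strain was W303-1A with the chromosomal NAB2 gene replaced (nab2∆HIS3) and the nab2-1 allele on a plasmid (CEN LEU2), and the wild type was W303-1A. Both were grown in YPD, the glucose-rich medium, at 30ºC to exponential phase, and total RNA of 3 samples per group was hybridised to 1 array per sample. The mutation is therefore studied through a plasmid-borne allele in a single strain background, and whether the samples came from separate cultures or clones is not in the labels. The p-values therefore reflect how much these samples varied, which could be technical variation alone.

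NAB2 encodes a poly(A)-binding protein of the nucleus that takes part in mRNA export. Glycolysis splits glucose into pyruvate, and in yeast growing on plentiful glucose most pyruvate is decarboxylated to acetaldehyde and reduced to ethanol, while a side branch makes acetate and acetyl-CoA. Glycolytic enzymes are among the most abundant proteins of the cell, and their genes are driven by the factors Gcr1, Gcr2, Rap1 and Tye7. Gluconeogenesis runs the pathway in reverse when glucose is gone, through enzymes whose genes are repressed by glucose. Fructose 2,6-bisphosphate is a signalling metabolite that activates glycolytic phosphofructokinase and inhibits the gluconeogenic bisphosphatase.

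The RNA of the mutated gene, NAB2, had log2 signals of 13.84, 13.60 and 13.70 in nab2-1 and 12.43, 12.36 and 12.29 in the wild type, a difference of 1.35 ± 0.07 (SE); where its probes lie relative to the lesion is not given, so this does not check the labels. Arrays correlated at 0.994 to 0.998 within a group and at 0.940 to 0.947 between groups, and the highest value of the whole table was 14.79. On chromosomes I, XI and XVI signals were raised in nab2-1 as a whole, with a median difference of 0.75 over 807 genes, against -0.11 over the 4642 genes of the other 13 chromosomes. FBA1, GPM1 and PCK1 on chromosome XI and ALD6 on XVI are the members on those chromosomes. The probe sets for the 5' and 3' ends of 18S ribosomal RNA were higher in nab2-1 by 1.34 ± 0.32 and 2.35 ± 0.46, and the wild type arrays ranged from 10.30 to 12.21 at the 3' end. Those of 25S ribosomal RNA differed by 1.23 ± 0.37 at the 5' end, 1.76 ± 0.44 in the middle and -0.03 ± 0.06 at the 3' end. Ribosomal RNA signal thus moved with the groups for all but the 25S 3' set. That set averaged 14.15 in nab2-1 and 14.18 in the wild type, above the 13.83 that opens the top 2% of tested genes. Its small difference therefore does not show that its RNA level was alike. The part of ribosomal RNA in the results was not tested. W303-1A is known as a MATa strain, but the MATalpha-specific genes were bright in both groups. MF(ALPHA)1, the alpha-factor gene, averaged 14.13 in nab2-1 and 13.91 in the wild type, SAG1 12.97 and 13.15, and STE3 12.86 and 12.44. The 7 MATa-specific genes all rose, where 30.2% of all genes did, with group means of 7.02 to 10.05 for nab2-1 against 6.50 to 9.08 for the wild type. STE6, STE3 and MF(ALPHA)1 lie on the raised chromosomes. Relative to the medians of their chromosomes, a scale explained below, STE6 was at 0.78, STE3 at -0.33 and MF(ALPHA)1 at -0.53. The MATalpha signals go against the mating type of the labelled strain, in both groups alike.

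Each difference is given as the nab2-1 mean less the wild type mean of log2 signals, ± SE, over 3 arrays in each group. A gene is said to have risen or fallen where limma's adjusted p (Benjamini-Hochberg over all 5449 genes) was under 0.05. Of the 35 members, 7 rose and 12 fell, where 67.4% of all tested genes passed, 30.2% upwards and 37.2% downwards. These shares lie near or below those of all genes. The median member differed by -0.03, against -0.05 over all genes. Scaling moved this split. When spiked Bacillus control RNAs set the scale of each array, the median of all genes was 0.22, 2133 genes were higher and 622 lower, and 12 members were higher and 4 lower. On that scale PYK2, ADH5, ALD5 and ALD6 still passed as lower, ACS2 was at -0.27 (adjusted p = 0.12), and TPI1, PGK1, PDC5, ADH1, ADH3, PYC1 and PYC2 did not pass. FBP1, PCK1, FBP26, PFK26 and PDC6 passed as higher on it. Among members the adjusted p there followed the size of the difference almost alone (TDH3 0.25 and 0.16, ENO1 0.34 and 0.049, FBA1 0.35 and 0.038). The control scale is shared by all genes of an array, and its spread is not given here. A call kept or lost on it thus says little about a single gene beyond the size of its difference. As deposited, changes of at least 2-fold were found for 3 members upwards and 2 downwards. Of all genes 9.87% changed by that much, 5.91% upwards and 3.96% downwards. The largest rises were those of FBP1, PCK1, FBP26 and PFK26, and the largest falls those of ADH5, PYK2, ALD5, ALD6 and ACS2. The genes of the abundant enzymes, the 9 members with the brightest signals, differed by at most 0.15 in either direction.

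**Figure D1:**
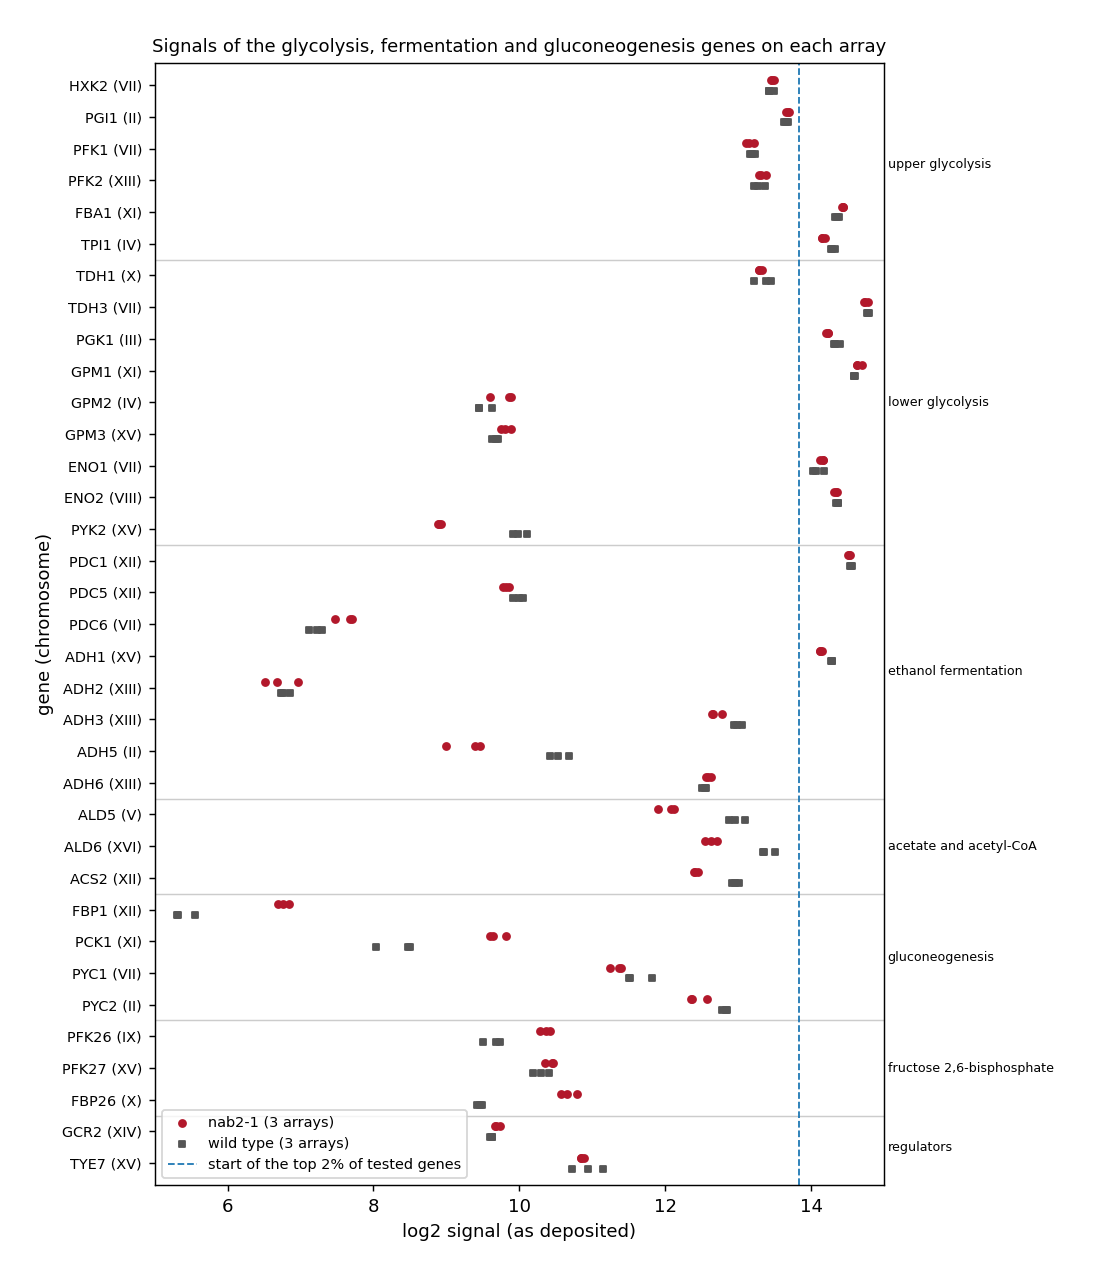
Log2 signal (horizontal axis) of the 35 measured genes (vertical axis, with chromosome) on each of the 3 nab2-1 arrays (circles, upper of each pair) and 3 wild type arrays (squares, lower), grouped by role. FBP1, PCK1, PFK26 and FBP26 show nab2-1 arrays to the right of the wild type, PYK2, ADH5, ALD5, ALD6 and ACS2 to the left, and 9 genes lie beyond the dashed line that opens the top 2% of tested genes at 13.83.

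The upper pathway, from glucose to the triose phosphates, held 6 members, of which 0 rose and 1 fell. Of all genes 30.2% rose and 37.2% fell. HXK2, the main hexokinase on glucose, had signals of 13.49, 13.47 and 13.45 in nab2-1 and of 13.43, 13.43 and 13.49 in the wild type. PGI1, the phosphoglucose isomerase, and PFK1 and PFK2, the subunits of phosphofructokinase, differed by 0.03 ± 0.04, -0.04 ± 0.05 and 0.05 ± 0.06. The groups overlapped for all of these genes. FBA1, the aldolase gene, lay at 14.44, 14.43 and 14.42 in nab2-1 and at 14.38, 14.36 and 14.33 in the wild type, a difference of 0.08 ± 0.04 (adjusted p = 0.15). TPI1, the triose phosphate isomerase gene, had 14.19, 14.15 and 14.15 in nab2-1 and 14.29, 14.28 and 14.33 in the wild type. It fell by 0.13 ± 0.04 (adjusted p = 0.028), but that call was lost without nab2-1 replicate 2 or 3 or any wild type replicate (adjusted p = 0.050 to 0.083).

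Of the 9 measured members of the lower pathway, from glyceraldehyde phosphate to pyruvate, 2 rose and 2 fell (30.2% and 37.2% of all genes). TDH3, which encodes the main glyceraldehyde phosphate dehydrogenase, had the highest mean signal of the tested genes, with 14.78, 14.73 and 14.74 in nab2-1 and 14.78, 14.77 and 14.79 in the wild type. TDH1, another gene of that enzyme, differed by -0.05 ± 0.07. The array also carries control probe sets along TDH1, which gave -0.07 ± 0.06 at the 3' end and -0.10 ± 0.07 at the 5' end. The control set for the middle of TDH1, which lay at 11.67, 11.30 and 11.25 in nab2-1 and 11.97, 11.95 and 12.14 in the wild type, fell by 0.62 ± 0.12 (adjusted p = 0.0027 over 5711 probe sets). A brighter control set for the middle, shared with other sequences by its name, differed by -0.07 ± 0.04. The probe sets of TDH1 thus disagreed, and only the dimmest of them passed the test.

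PGK1, the phosphoglycerate kinase gene, had 14.20, 14.24 and 14.23 in nab2-1 and 14.33, 14.39 and 14.31 in the wild type. It fell by 0.12 ± 0.05 (adjusted p = 0.044), a call lost when any 1 of the 6 arrays was left out (adjusted p = 0.056 to 0.13). GPM1, the phosphoglycerate mutase gene, lay at 14.71, 14.63 and 14.63 in nab2-1 and at 14.60, 14.59 and 14.58 in the wild type, a difference of 0.07 ± 0.05 (adjusted p = 0.22). GPM2 and GPM3, homologues of GPM1 with little or no known mutase activity, rose by 0.27 ± 0.09 (adjusted p = 0.035) and 0.14 ± 0.05 (adjusted p = 0.046). The GPM2 call was lost without nab2-1 replicate 2 or 3 or wild type replicate 1 or 3 (adjusted p = 0.10 to 0.11), and the GPM3 call without any array but nab2-1 replicate 2 (adjusted p = 0.067 to 0.13). ENO1 and ENO2, the enolase genes, differed by 0.06 ± 0.05 and -0.02 ± 0.04. ENO1 had 14.13, 14.16 and 14.16 in nab2-1 and 14.07, 14.17 and 14.02 in the wild type, and ENO2 had 14.36, 14.35 and 14.31 in nab2-1 and 14.34, 14.37 and 14.37 in the wild type. The groups overlapped for both enolase genes. How far the probe sets of close copies, such as TDH1 and TDH3 or ENO1 and ENO2, pick up each other's RNA was not tested.

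PYK2 was the member of the lower pathway that moved most. It encodes a pyruvate kinase that, unlike the main enzyme Cdc19, does not depend on fructose 1,6-bisphosphate and whose gene is repressed by glucose. Its signals were 8.93, 8.90 and 8.88 in nab2-1 and 9.97, 10.10 and 9.91 in the wild type, well apart. PYK2 fell by 1.09 ± 0.06, or 2.13-fold (adjusted p = 5.6e-06).

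Of the 8 members that make or use ethanol, 1 rose and 4 fell, where 30.2% of all genes rose and 37.2% fell. PDC1, the main pyruvate decarboxylase gene, had 14.53, 14.50 and 14.52 in nab2-1 and 14.55, 14.54 and 14.56 in the wild type, a difference of -0.03 ± 0.04 (adjusted p = 0.51). PDC5, the other decarboxylase gene used on glucose, fell by 0.18 ± 0.05 (adjusted p = 0.024), a call lost without nab2-1 replicate 2 or 3 or wild type replicate 1 or 3 (adjusted p = 0.059 to 0.079). PDC6, a minor decarboxylase gene known for its use when sulphur is short, lay at 7.71, 7.47 and 7.67 in nab2-1 and at 7.29, 7.12 and 7.23 in the wild type. It rose by 0.40 ± 0.08 (adjusted p = 0.0026).

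ADH1, which encodes the alcohol dehydrogenase that makes ethanol, had 14.15, 14.13 and 14.13 in nab2-1 and 14.29, 14.27 and 14.29 in the wild type. It fell by 0.15 ± 0.04 (adjusted p = 0.015), and without wild type replicate 1 the adjusted p was 0.052. ADH2, the glucose-repressed gene of the enzyme that consumes ethanol, differed by -0.07 ± 0.11 with overlapping groups. ADH3, the mitochondrial enzyme's gene, fell by 0.30 ± 0.06 (adjusted p = 0.0024), and ADH6, which encodes an NADPH-dependent alcohol dehydrogenase, differed by 0.05 ± 0.04. ADH5, a gene of another alcohol dehydrogenase, lay at 9.46, 9.40 and 8.99 in nab2-1 and at 10.68, 10.41 and 10.53 in the wild type, so that even its highest nab2-1 array was far below the lowest wild type array. It fell by 1.26 ± 0.13, or 2.39-fold (adjusted p = 9.8e-05).

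All 3 members of the acetate branch fell, where 37.2% of all genes did, and on the scale of the spiked controls ACS2 no longer passed (-0.27, adjusted p = 0.12). ALD6 encodes the cytosolic acetaldehyde dehydrogenase, the main source of acetate on glucose, ALD5 a mitochondrial acetaldehyde dehydrogenase, and ACS2 the acetyl-CoA synthetase that works during growth on glucose. ALD5 had signals of 11.90, 12.08 and 12.11 in nab2-1 and of 13.10, 12.96 and 12.87 in the wild type, and fell by 0.94 ± 0.08 (1.92-fold, adjusted p = 3.9e-05). ALD6 had 12.71, 12.55 and 12.63 in nab2-1 and 13.34, 13.51 and 13.35 in the wild type, and fell by 0.77 ± 0.07 (1.71-fold, adjusted p = 4.2e-05) although it lies on chromosome XVI. ACS2 had 12.40, 12.45 and 12.39 in nab2-1 and 12.91, 12.96 and 13.01 in the wild type, and fell by 0.55 ± 0.05 (1.46-fold, adjusted p = 4.5e-05). For each of the 3 genes every nab2-1 array was below every wild type array. The share of all genes with groups so separated is not given here, and 67.4% of all genes passed the threshold.

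Of the 4 gluconeogenic members 2 rose and 2 fell, where 30.2% of all genes rose and 37.2% fell. FBP1 and PCK1 rose, while the genes of pyruvate carboxylase, which makes the oxaloacetate that Pck1 uses and also feeds the citric acid cycle, fell. FBP1, the fructose 1,6-bisphosphatase gene, lay at 6.76, 6.84 and 6.70 in nab2-1 and at 5.32, 5.55 and 5.30 in the wild type, and rose by 1.37 ± 0.08 (2.59-fold, adjusted p = 6.6e-06). PCK1, the phosphoenolpyruvate carboxykinase gene, lay at 9.60, 9.64 and 9.82 in nab2-1 and at 8.51, 8.48 and 8.03 in the wild type, and rose by 1.35 ± 0.13 (2.54-fold, adjusted p = 7.7e-05). PYC1 and PYC2, the carboxylase genes, fell by 0.28 ± 0.09 (adjusted p = 0.029) and 0.38 ± 0.07 (adjusted p = 0.0017). The PYC1 call was lost without nab2-1 replicate 1 or 3 (adjusted p = 0.080 and 0.055), and its fall was 0.18 without wild type replicate 2. FBP1 was among the dimmest genes, but its mean signal of 6.08 lay above 4.27, the 95th percentile of the probe sets for the other yeast on the array, as did that of every other measured member.

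A list of 8 glucose-repressed genes, which contains FBP1 and PCK1, was used to check the growth stage. Of the 8 genes, 6 rose and 0 fell, where 30.2% of all genes rose, and the median was 0.61. Relative to genes of like signal 5 were higher, the median was 0.25, and MLS1 did not pass (0.07, adjusted p = 0.66). The list does not hold every gene known to be used away from high glucose: PYK2 and HXK1, which fell, are not in it. HXK1 did not pass relative to chromosome medians (-0.38 ± 0.15, adjusted p = 0.063). Other carbon metabolism genes outside the list went both ways. PGM2, ALD4, GLK1 and ALD2 fell, MDH2 and SIP4 rose, and ADY2 differed by -0.05 ± 0.08. JEN1, the lactate and pyruvate transporter gene, rose by 2.09 ± 0.09, ACS1 by 0.77 ± 0.10, MLS1 by 0.46 ± 0.08 and CAT8 by 0.44 ± 0.11, while ADH2 and ICL1 differed by -0.07 ± 0.11 and 0.06 ± 0.05. PCK1, JEN1 and ACS1 lie on the raised chromosomes, and relative to chromosome medians ICL1 passed as higher (0.19 ± 0.05) and ACS1 did not (0.04 ± 0.08). Whether the cultures of the groups differed in glucose left at harvest was not tested.

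Of the 3 genes of fructose 2,6-bisphosphate turnover, 2 rose, 1 on each arm, where 30.2% of all genes rose. FBP26, which encodes the phosphatase that breaks it down, lay at 10.58, 10.65 and 10.79 in nab2-1 and at 9.42, 9.49 and 9.46 in the wild type, and rose by 1.21 ± 0.06 (2.32-fold, adjusted p = 4.5e-06). PFK26, a gene of the kinase that makes it, lay at 10.28, 10.37 and 10.42 in nab2-1 and at 9.68, 9.73 and 9.50 in the wild type, and rose by 0.72 ± 0.07 (1.65-fold, adjusted p = 9.6e-05). PFK27, the other kinase gene, differed by 0.13 ± 0.07 (adjusted p = 0.14). The regulators among the members did not pass: GCR2, a coactivator of glycolytic genes, had 9.68, 9.66 and 9.73 in nab2-1 and 9.60, 9.63 and 9.62 in the wild type (0.07 ± 0.04, adjusted p = 0.17). TYE7, a helix-loop-helix factor of glycolytic genes, had 10.85, 10.88 and 10.84 in nab2-1 and 10.94, 11.15 and 10.73 in the wild type (-0.08 ± 0.10, adjusted p = 0.48), with a wide spread in the wild type.

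How far the brightest members could show a change was read from the raised chromosomes. Of the 35 members, 9 lay in the top 2% of tested genes by mean signal, at 13.83 or above: FBA1, TPI1, TDH3, PGK1, GPM1, ENO1, ENO2, PDC1 and ADH1. Of these, 0 rose and 3 fell, and in that band 31.2% of all 109 genes passed in either direction. The median gene of chromosomes I, XI and XVI exceeded that of the other chromosomes by 1.04 in the dimmest 20% of genes, 0.93, 0.89 and 0.92 in the next bands of that size, 0.72 in the next band, and 0.17 in the top band, where 20 and 89 genes were compared. In a finer split of the brightest genes, added after seeing the data, the gap was 0.84 between signals of 11.64 and 12.52, 0.69 up to 13.18 and 0.34 up to 13.83. HXK2, PGI1, PFK2 and TDH1 lay in that last band.

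Differences and replicate spread both narrowed towards the upper end of the scale. Within groups, genes had a median SD of 0.12 in the dimmest 20% and of 0.026 in the top band, and 0 of the 109 genes there changed 2-fold. The 20 top-band genes of chromosomes I, XI and XVI, which include FBA1 at 0.08 and GPM1 at 0.07, differed by -0.01 to 0.46 with a median of 0.11. Whether the signal ceiling or the RNA levels set these small values was not tested. For the 13 members in the upper bands, a small difference therefore does not show that the RNA level was alike. Among the 22 members up to the 95th percentile of signal, 7 rose and 9 fell, where 31.0% of all genes in that range rose and 37.7% fell.

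**Figure D2:**
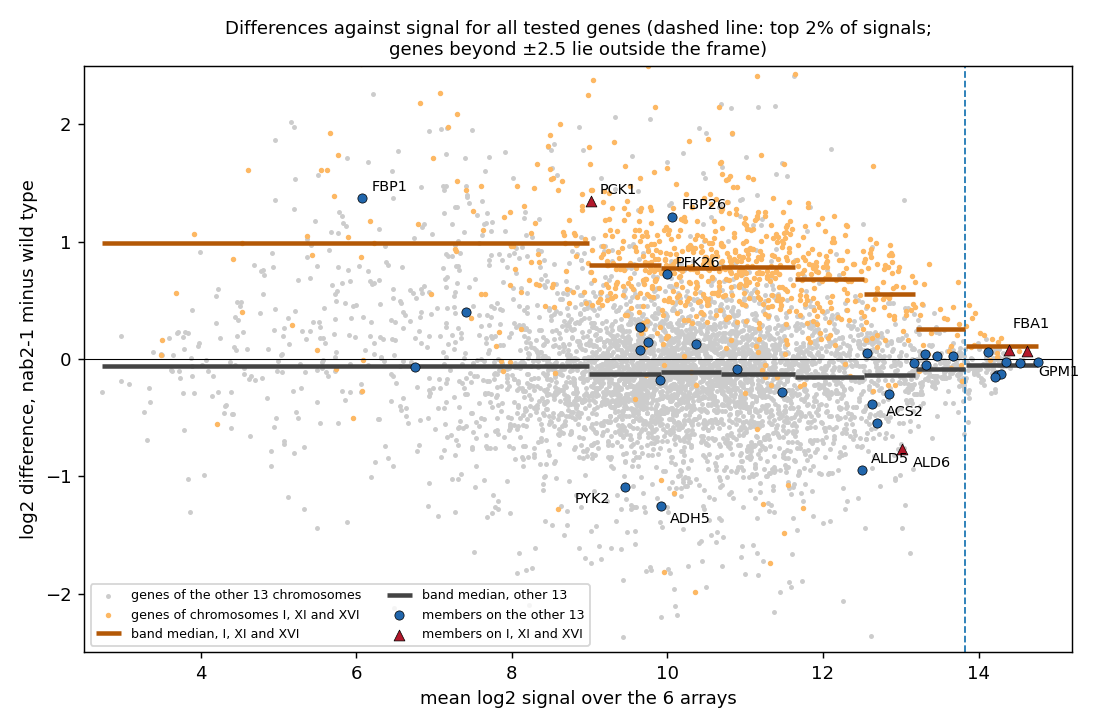
Difference in log2 signal, nab2-1 minus wild type (vertical axis), against mean log2 signal over the 6 arrays (horizontal axis) for the tested genes, with genes of chromosomes I, XI and XVI in orange, horizontal bars for band medians, circles for members on the other 13 chromosomes and triangles for members on I, XI and XVI. The gap between the bars shrinks from 1.04 at the left to 0.17 beyond the dashed line at 13.83, where FBA1 and GPM1 lie; ALD6 stands at -0.77, far below the bar of its chromosomes.

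To set each member against its chromosome, every value was lowered, on each array, by the median deviation of the genes of that chromosome, and the fit was repeated. Then 14 members were higher and 9 lower, where 61.6% of all genes passed, 30.1% as higher and 31.5% as lower. ALD6 was lower by 1.52 ± 0.07 (adjusted p = 3.5e-06) on this scale, a larger size than as deposited. PCK1, still higher, was at 0.59 ± 0.13 (adjusted p = 0.0059). FBP1, FBP26, PFK26 and PDC6 were at 1.45, 1.36, 0.86 and 0.52, and ADH5, PYK2, ALD5 and ACS2 at -1.14, -0.99, -0.81 and -0.47, all past the threshold.

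Most members on the other chromosomes moved up by the small negative median of their chromosome. TPI1, PGK1, PDC5, ADH1 and PYC1 no longer passed, with values of -0.02, -0.01, -0.10, -0.06 and -0.17. HXK2, PGI1, PFK2, ENO1, ADH6, PFK27 and GCR2 passed as higher, at 0.14, 0.15, 0.18, 0.18, 0.18, 0.22 and 0.21. The calls of HXK2, PGI1, PFK2, ENO1, ADH3 and PFK27 did not hold in every case when single arrays were left out, and without nab2-1 replicate 3 or wild type replicate 1 the count of higher members was 9.

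FBA1 and GPM1 passed as lower relative to the chromosome median, at -0.68 ± 0.04 (adjusted p = 1.7e-05) and -0.69 ± 0.05 (adjusted p = 2.0e-05). That median is set by dimmer genes. When each gene was instead set against the 40 genes nearest in signal on the same class of chromosomes, a comparison added after seeing the data, FBA1 was at -0.10 (adjusted p = 0.099) and GPM1 at -0.11 (adjusted p = 0.077), and neither passed. HXK2, PGI1, PFK2 and ENO1, higher relative to chromosome medians, did not pass on that scale either. They were at 0.12, 0.09, 0.13 and 0.12 (adjusted p = 0.053, 0.15, 0.12 and 0.10). ADH6, PFK27 and GCR2 still passed as higher, at 0.19, 0.21 and 0.29. ALD6 was at -1.31 (adjusted p = 6.2e-06) and PCK1 at 0.44 (adjusted p = 0.024) on that scale. There 10 members were higher and 7 lower, where 30.2% and 31.3% of all genes were, and 0 of the 9 brightest members passed.

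**Figure D3:**
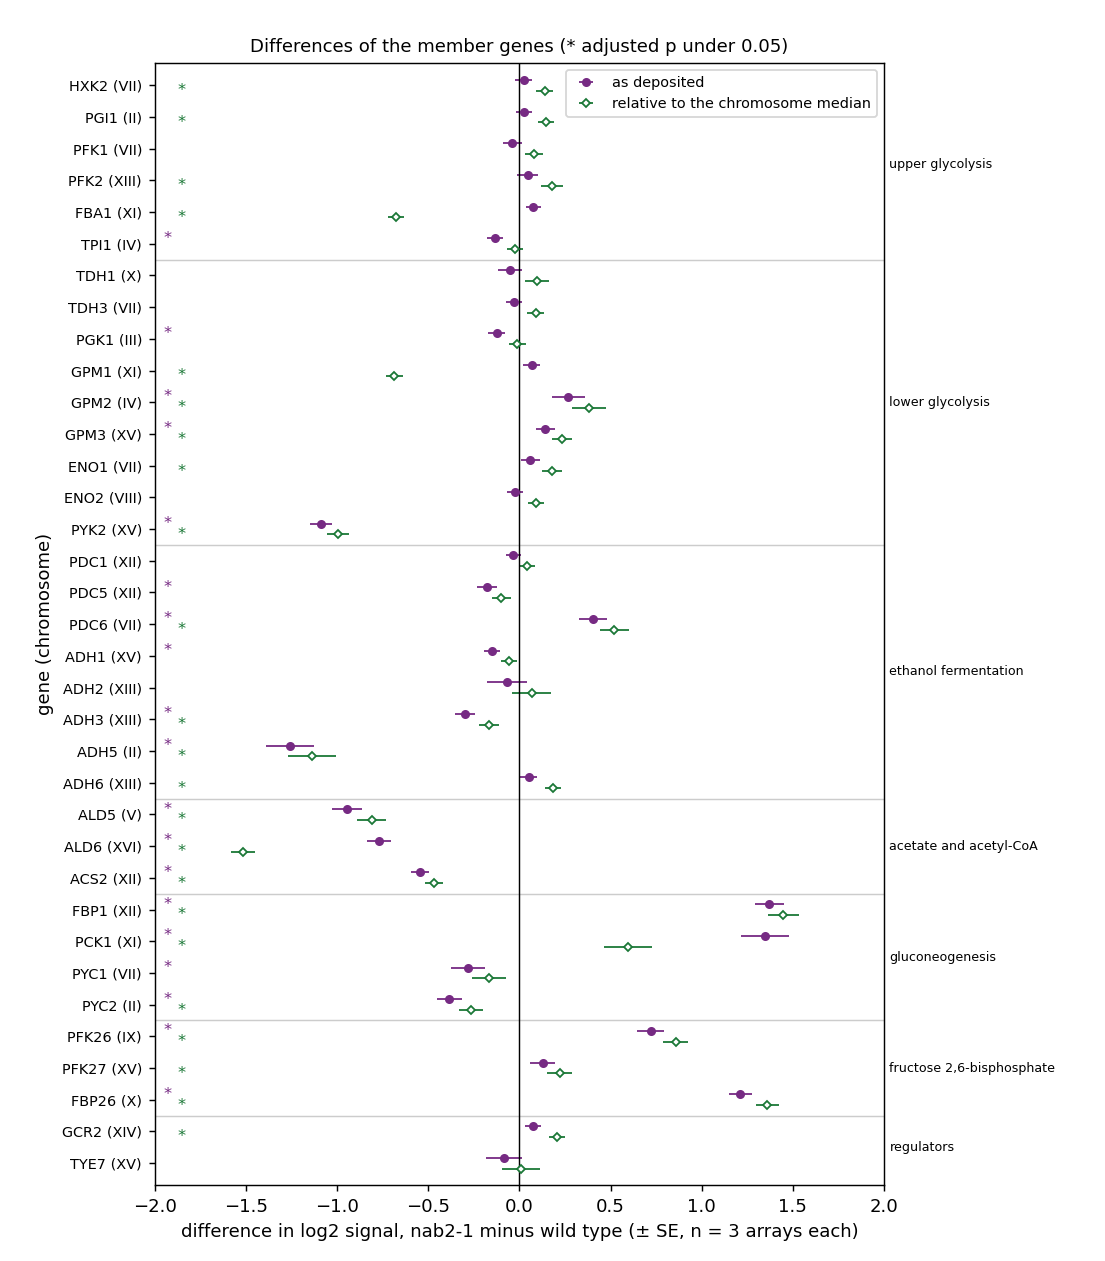
Difference in log2 signal, nab2-1 minus wild type, with its SE (horizontal axis) for the 35 measured genes (vertical axis), as deposited (filled circles) and relative to the chromosome median (open diamonds); stars mark adjusted p under 0.05. For FBA1 and GPM1 the open symbols stand at -0.68 and -0.69 beside filled ones near 0, for ALD6 at -1.52 beside -0.77 and for PCK1 at 0.59 beside 1.35.

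Members of an enzyme family, or of opposing steps, were also compared through the log2 ratio of their signals on each array, over 15 pairs. The ratio is used only for its change between strains. With 3 arrays against 3 the two-sided exact permutation test cannot go below p = 0.1, and the smallest adjusted p over the pairs was 0.17, so none of these differences can pass. Of the 15 pairs, 9 had groups that did not overlap, among them ADH3/ADH1, GPM3/GPM1 and PFK1/PFK2, the last with a difference of -0.08. The ADH5/ADH1 ratio was at -4.69, -4.73 and -5.13 in nab2-1 and -3.62, -3.86 and -3.76 in the wild type, a difference of -1.11 ± 0.16 (exact p = 0.1). PDC6/PDC1 differed by 0.44 ± 0.08 and PDC5/PDC1 by -0.14 ± 0.04 (exact p = 0.1 for each), and the groups did not overlap in either. As ADH1 and PDC1 lie in the top band, these ratios carry its narrow range.

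The pairs among FBP26, PFK26, PFK27, FBP1 and PFK1 held no top-band member. The FBP26/PFK26 ratio was 0.30, 0.28 and 0.37 in nab2-1 and -0.26, -0.24 and -0.04 in the wild type, a difference of 0.49 ± 0.07 (exact p = 0.1), and the groups did not overlap. PFK27/PFK26 differed by -0.59 ± 0.06 and FBP1/PFK1 by 1.41 ± 0.09 (exact p = 0.1 for each). As PFK1 differed by only -0.04, the FBP1/PFK1 ratio mostly repeats the rise of FBP1. The ratios of TDH1/TDH3, ENO1/ENO2, PYC1/PYC2 and ALD5/ALD6 overlapped between groups, with differences of -0.02 ± 0.08, 0.08 ± 0.05, 0.10 ± 0.10 and -0.17 ± 0.14. So did those of ADH2/ADH1 and GPM2/GPM1, with differences of 0.09 ± 0.14 and 0.20 ± 0.13.

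**Figure D4:**
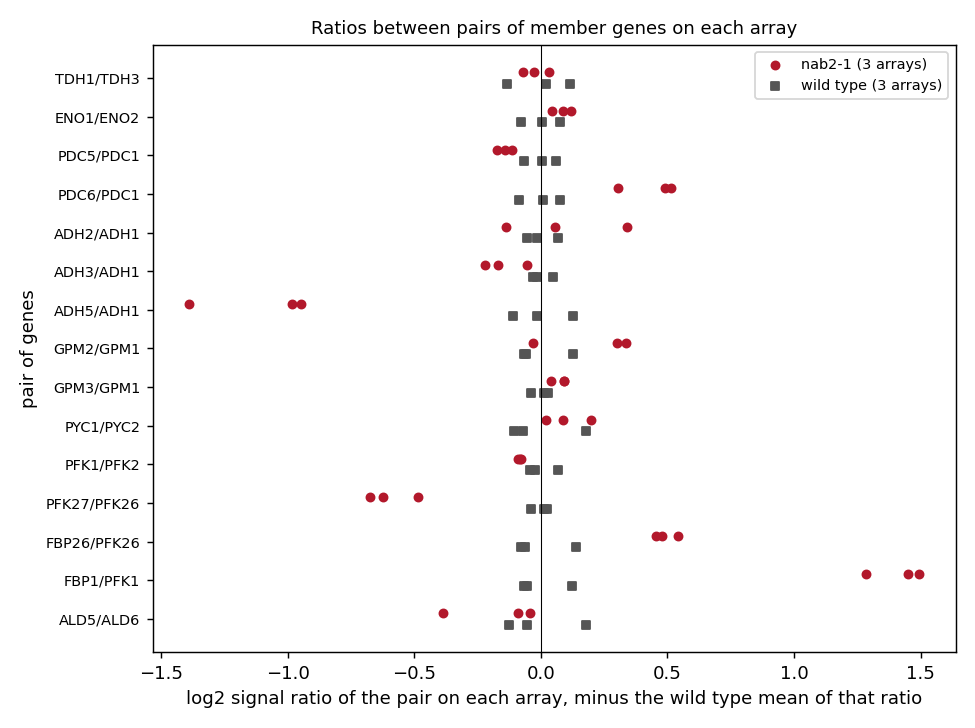
Log2 ratio of the signals of 2 genes on each array, minus the wild type mean of that ratio (horizontal axis), for 15 pairs (vertical axis), with nab2-1 arrays as circles and wild type arrays as squares. ADH5/ADH1 and PFK27/PFK26 stand to the left in nab2-1, and FBP1/PFK1, FBP26/PFK26 and PDC6/PDC1 to the right.

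Another 29 genes of carbon metabolism outside the set were counted beside it, and 9 rose and 12 fell, shares close to the 30.2% and 37.2% of all genes. JEN1 rose by 2.09 ± 0.09, MDH2, the cytosolic malate dehydrogenase gene, by 1.14 ± 0.07, GCR1, the glycolytic activator gene, by 1.03 ± 0.06, SIP4, an activator of gluconeogenic genes, by 0.83 ± 0.13 and ACS1 by 0.77 ± 0.10. JEN1, GCR1 and ACS1 lie on the raised chromosomes, and relative to their medians they were at 1.34, 0.28 and 0.04, with ACS1 no longer passing. Regulators on this list also fell: RAP1 by 0.25 ± 0.05 (adjusted p = 0.0042) and MIG1 by 0.54 ± 0.06 (adjusted p = 0.00011). Relative to chromosome medians RAP1 did not pass (-0.12, adjusted p = 0.084) and MIG1 was at -0.43 (adjusted p = 0.00045).

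The largest falls were those of PGM2, a phosphoglucomutase gene (-1.72 ± 0.19), ADH4, another alcohol dehydrogenase gene (-1.35 ± 0.05), GPD2, a glycerol phosphate dehydrogenase gene (-1.28 ± 0.42), ALD4, a mitochondrial acetaldehyde dehydrogenase gene (-0.97 ± 0.13), and GLK1, the glucokinase gene (-0.69 ± 0.12). GPD2 was at 10.61 and 10.49 in wild type replicates 1 and 2 but 9.03 in replicate 3, and its call was lost without replicate 1 or 2 of either group (adjusted p = 0.056 to 0.090). HXK1, the hexokinase gene used away from high glucose, fell by 0.47 ± 0.15, a call lost without wild type replicate 2 or 3 (adjusted p = 0.090 and 0.051), and by 0.30 without nab2-1 replicate 3. CDC19, the main pyruvate kinase gene on chromosome I, lay in the top band and differed by 0.07 ± 0.05 (adjusted p = 0.22).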

How the data were processed

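The deposited table holds log2 signals of 10928 probe sets on 6 arrays; GCOS, RMA and limma are named per the submitters' processing notes, without versions. The deposited log2 values were used unchanged. Probe sets of 1 Saccharomyces cerevisiae gene were named through the platform annotation and RefSeq gene table (R64), keeping the highest-mean set per gene. Each measured member had 1 probe set. No detection calls were used; the number of arrays limits the precision. Groups were compared with limma 3.58.1 (lmFit, eBayes, two-sided) in R 4.3.3. Members, lists and alternatives were chosen with earlier results of these data known. Values on each array are given for members past the threshold with a difference of at least 0.5 on either scale, those on chromosomes I, XI and XVI, those in the top 2% of signals, GCR2 and TYE7; other genes by the 5 largest rises and falls plus CDC19, GCR1 and HXK1. HXK2, RAP1, MIG1, the TDH1 controls and the other glucose-repressed genes were named after their values were seen. Promoter and protein sequences were not analysed here. The test was checked on simulated data with independent values, which cannot show the effect of shifts shared by an array or of related samples. Replicate numbers were not used to pair the samples, and whether same-numbered samples were handled together is not known here. Figures were drawn with matplotlib 3.10.9.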

Additional observations from a re-analysis of the deposited data

How the results depend on the processing

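With the arrays scaled to 36 probe sets of spiked Bacillus controls, the median of all genes was 0.22, against -0.05 as deposited. Of all 5449 genes 2133 were higher and 622 lower. With that scaling 12 members were higher and 4 lower (ADH5, ALD5, ALD6 and PYK2), their median was 0.25, and 6 other carbon genes were lower. TPI1, PGK1, PDC5 and ADH1 turned to 0.14, 0.15, 0.10 and 0.12, none past the threshold. ADH3, PYC1, PYC2, ACS2 and HXK1 lost their calls, and FBA1, GPM1, ENO1, PFK27, GCR2 and CDC19 passed as higher. Among members the adjusted p on this shared scale followed the size of the difference almost alone. Relative to chromosome medians 14 members were higher with a median of 0.0794, and FBA1, GPM1 and CDC19 turned to -0.68, -0.69 and -0.66; relative to genes of like signal the member median was 0.0147. Quantile normalization gave a member median of 0.0049 and a top-band gap of 0.19. Without the dimmest 25% of genes, which leaves out some of the genes counted, 4 members and 5 other carbon genes were higher, and on the chromosome-relative scale 4 other carbon genes, with a member median of 0.0502. Of all 4087 genes left then, 1237 were higher, and 1261 on the chromosome-relative scale. At an adjusted p of 0.01, 7 members were lower, and 9 higher relative to chromosome medians. There 1613 and 1205 of all 5449 genes were. Leaving out each array in turn gave 5 to 6 higher and 8 to 10 lower members, medians of -0.0278 to -0.00064, 9 to 13 higher members relative to chromosome medians with medians of 0.0519 to 0.0871, and top-band gaps of 0.16 to 0.19. Over all genes the same fits gave 1499 to 1681 higher and 1838 to 2012 lower, and 1415 to 1643 higher relative to chromosome medians. The cause of the shifts between settings was not tested. With the replicate number as a replicate block 6 members were higher and 10 lower, where 1582 and 1932 of all 5449 genes were. TPI1, PGK1 and GPM3 lost their calls (adjusted p = 0.066, 0.083 and 0.066). Same-numbered samples deviated together at r = -0.19, 0.19 and -0.14. The numbers were not taken as pairs, but these few values cannot show that handling was separate.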
